A study of Saccharomyces cerevisiae with 6 samples.

Results

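The nuclear pore complex genes of Saccharomyces cerevisiae were followed as a set of 33 listed genes out of 7127 genes in the count table. The rule that picks them uses gene names and no measured value, though the set was proposed with earlier results of these data known, and all 33 had enough counts to be tested. The libraries were polyadenylated RNA of a haploid MATa strain of the S288c background grown at 30°C in YPD. Cells exposed to 1 µM beta-estradiol for 180 min gave 3 libraries (mCh-), which were set against 3 libraries of cells taken at 0 min (mCh*). Both groups carry at the septin Shs1 a cassette with mCherry, the Cln2 3'UTR and NatNT2 between loxP sites, followed by GFP. Both also carry the Cre recombinase allele leu2::Cre-EBD78:LEU2, whose product is switched on by the hormone and recombines loxP sites, and the count table does not measure how many cells recombined. The other alleles shared by all libraries are ade2, TetR-mCherry with trp1::TetO:TRP1, and lys4::LacO:hphNT1 together with his3::LacR-GFP:HIS3. Time in culture, hormone and any recombination of the reporter allele change together between the groups, and their parts cannot be told apart. The labels name 3 independent experiments, and p-values measure the spread between the libraries made from them.

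The nuclear pore complex is the channel through which proteins, RNA and ribosomal subunits cross the nuclear envelope. Its scaffold is built from an outer ring, the Nup84 complex with its Y-shaped assembly, and an inner ring around Nic96, and it is held in the membrane by transmembrane proteins. FG nucleoporins carry phenylalanine-glycine (FG) repeats that line the channel and bind transport receptors with their cargo. Non-FG proteins of the cytoplasmic side work in messenger RNA release, and the long coiled-coil proteins Mlp1 and Mlp2 form the nuclear basket. In budding yeast the nuclear envelope stays closed in mitosis, so new pores are inserted into an intact envelope.

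The members fell into 14 scaffold genes (7 outer ring, 7 inner ring), 4 membrane genes, 10 FG genes and 5 other non-FG genes (3 cytoplasmic, 2 basket). The coding sequences bear the FG class out in part. In-frame pairs of a phenylalanine and a glycine codon numbered 12 to 47 in 9 of the 10 FG genes, with the highest numbers in NUP116 (47), NUP100 (45) and NSP1 (33), and NUP60 had 0. NUP145, whose product is cleaved into an FG part and a scaffold part and which was counted here as outer ring, had 15 such pairs. The inner ring linker genes NUP53 and NUP59 had 4 and 6. The coding stretches below show the first GLFG or FxFG repeat of 4 FG genes as read from the RefSeq R64 genome, with the repeat codons in capitals. They were chosen because they stand for the 2 kinds of repeat and for FG genes that were and were not called between the times. NSP1 is read from the plus strand at chrX:365929-365958, NUP49 from the plus strand at chrVII:180730-180759, NUP57 from the minus strand at chrVII:729426-729455 and NUP116 from the minus strand at chrXIII:366073-366102.
NSP1: aaaacgcccTTTTCGTTCGGGactgccaac
NUP49: cctgcaggtGGGCTCTTTGGTcaggccagc
NUP57: acaggtggaGGCCTTTTCGGTaataagcct
NUP116: acaacaggaGGATTATTTGGTcaaaagcca
The NSP1 stretch holds an FxFG repeat and the other 3 hold a GLFG repeat. By full length, GLFG runs numbered 20 in NUP116, 11 in NUP100, 9 in NUP57 and 8 in NUP49, and FxFG runs numbered 19 in NSP1, 13 in NUP1 and 11 in NUP2.

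The libraries held 25,987,900 to 34,032,212 gene counts each, and a member had 564 to 11196 counts in a library. The replicate libraries of a group differed from each other by more than counting noise (chi-square per degree of freedom at least 25.0 in every pair). Genes that mark MATa cells (6 genes) summed to 1684 to 1948 CPM at 180 min and 2555 to 3034 CPM at 0 min, where CPM are read counts scaled to a common library size after adjustment for composition, and the 4 MATalpha genes summed to at most 23.6 CPM in any library. Protein-coding genes of at least 3000 bases were higher relative to other genes in the 180 min libraries. Their median deviation from the gene's own mean over 6 libraries, on the log2 scale, was 0.23, 0.14 and 0.05 at 180 min (replicates 1, 2 and 3) and -0.18, -0.18 and -0.05 at 0 min. Of the 33 nuclear pore genes 13 span at least 3000 bases, and the part of this shift in their values was not tested beyond the refit given below.

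Summed nuclear pore transcripts overlapped between the times after adjustment for composition and were a larger share of the raw counts at 180 min. The 33 genes summed to 3829, 3767 and 3693 CPM at 180 min and 3806, 3914 and 4040 CPM at 0 min, so the groups overlapped. As a share of all gene counts, with no composition factors, they made up 0.411 ± 0.0131% at 180 min and 0.359 ± 0.0152% at 0 min (SD, n = 3), without overlap. Genes were called at an adjusted p below 0.05, from edgeR's quasi-likelihood test after Benjamini-Hochberg adjustment over 6220 genes. Of the 33, 3 rose (POM33, NUP120 and MLP1), 10 fell and 20 were not called. With library sizes only, without composition factors, 15 were called higher and 2 lower, against 48.2% and 15.6% of all genes. Over all genes tested 57.7% were called, 29.5% higher and 28.2% lower, so the share of members that fell (30.3%) was close to the background and the share that rose (9.09%) was below it. The median log2 fold change of the members was -0.08, against 0.02 over all genes. In 12 members every 180 min library lay below every 0 min library and in 2 every one lay above, against 30.8% and 32.7% of all genes. For 32 members, POM34 being the exception, the 95% interval around the log2 value stayed inside a 2-fold change in either direction. In bulk RNA, fewer cells of a type and less RNA per cell cannot be told apart.

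**Figure D1:**
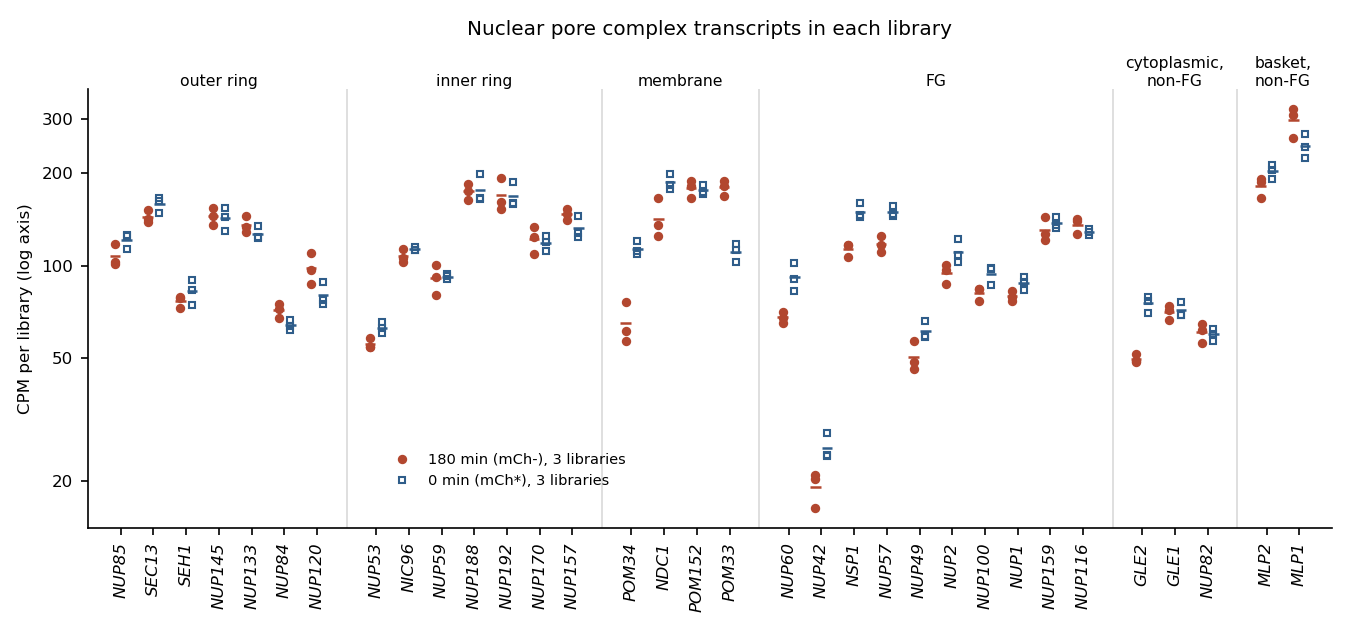
CPM per library on a log axis for the 33 nuclear pore complex genes, ordered within each class by fold change, with filled circles for the 180 min (mCh-) libraries, open squares for the 0 min (mCh*) libraries (3 each) and bars at the group means. POM33 at 180 min lies above all its 0 min values, while POM34, GLE2, NSP1, NUP57 and NUP60 at 180 min lie below all of theirs.

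The scaling of the libraries decides the direction of small changes here. Without composition factors all genes together had a median of 0.27 in place of 0.02 on the log2 scale. Relative to the median of all genes, the median of the FG genes was -0.27 with either scaling and that of the scaffold genes -0.02 with either scaling. A change of scaling shifts all genes nearly alike, so this likeness is part of its construction. Directions given below are therefore changes relative to the bulk of genes. Removing a smooth dependence on gene length and GC content, fitted over all protein-coding genes, is the other setting that moved many members. With it 1 member was called higher and 21 lower, against 29.8% and 28.9% of all genes. Relative to the median of all genes, the FG median was then -0.34 and the scaffold median -0.18.

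Scaffold transcripts had few calls with composition factors and more under the other 2 settings. Among the 14 scaffold genes 1 rose and 0 fell, leaving 13 without a call, against 29.5% and 28.2% of all genes. Library sizes only gave 9 higher and 0 lower (median 0.25), against 48.2% and 15.6% of all genes. The length and GC trend removed gave 0 higher and 7 lower (median -0.17), against 29.8% and 28.9% of all genes. The log2 fold changes of the scaffold genes as fitted had a median of -0.01 and ran from -0.18 to 0.29. Their summed level was 1729, 1643 and 1564 CPM at 180 min and 1592, 1615 and 1718 CPM at 0 min, and the groups overlapped. The 95% intervals of the 14 log2 fold changes reached from -0.35 (NUP85) to 0.49 (NUP120), which bounds each scaffold change well inside 2-fold.

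In the outer ring, NUP120, which encodes an arm subunit of the Y-shaped complex, had 109.9, 96.5 and 87.5 CPM at 180 min and 75.0, 77.3 and 88.3 CPM at 0 min. The lowest 180 min library and the highest 0 min library overlapped. It rose by 0.29 ± 0.10 (SE) on the log2 scale, with an adjusted p of 0.0173 in edgeR. Its call did not survive the removal of 0 min replicate 1 (adjusted p = 0.0743), 0 min replicate 2 (0.0682) or 180 min replicate 1 (0.0977). The fit with the length and GC trend removed gave NUP120 a log2 fold change of 0.03 (adjusted p = 0.759), also without a call. NUP84, which names the complex, had 72.1, 67.6 and 75.2 CPM at 180 min and 63.8, 61.9 and 66.4 CPM at 0 min, so its groups did not overlap, but it was not called (log2 fold change 0.16, adjusted p = 0.0920). NUP85 (-0.18), NUP133 (0.10), NUP145 (0.02) and the small subunits SEH1 (-0.11) and SEC13 (-0.14) were not called. NUP85 was called lower without 180 min replicate 1 (adjusted p = 0.0260). NUP85, NUP133 and NUP145 were called lower with the length and GC trend removed (-0.31, -0.19 and -0.24). Sec13 and Seh1 also work outside the pore, Sec13 in the COPII coat and both in the SEA complex at the vacuole. SEC13 was the most abundant scaffold transcript per length, at 161 CPM per kb at 180 min and 178 CPM per kb at 0 min.

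None of the 7 inner ring genes was called by edgeR's quasi-likelihood test, 1 of them (NUP53) at an unadjusted p below 0.05, and limma-voom and DESeq2 also called 0. NUP192, one of the large inner ring subunits, was almost level at 192.6, 161.7 and 153.3 CPM at 180 min and 160.0, 158.7 and 187.6 CPM at 0 min (log2 fold change 0.00 ± 0.10 SE). NIC96 (-0.08), NUP188 (-0.02), NUP170 (0.05) and NUP157 (0.15) were not called either, where Nic96 anchors the channel FG trimer and Nup188 is a large ring subunit like Nup192. NUP157 was called higher without 0 min replicate 3 (0.22, adjusted p = 0.0387). NUP53, a linker and membrane-binding subunit, had 54.3, 58.1 and 54.3 CPM at 180 min and 62.6, 60.6 and 65.6 CPM at 0 min. These groups did not overlap, yet the gene was just short of a call (-0.18 ± 0.08 SE, adjusted p = 0.0641), and it was called lower under DESeq2's size factors (0.0491), under TMM factors that leave out ribosomal protein genes (0.0447) and with nuclear protein-coding genes alone (0.0490). With the length and GC trend removed, NIC96 (-0.30), NUP170 (-0.25), NUP188 (-0.32) and NUP192 (-0.31) were called lower, and with NUP85, NUP133 and NUP145 they made 7 of 14 scaffold genes.

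**Figure D2:**
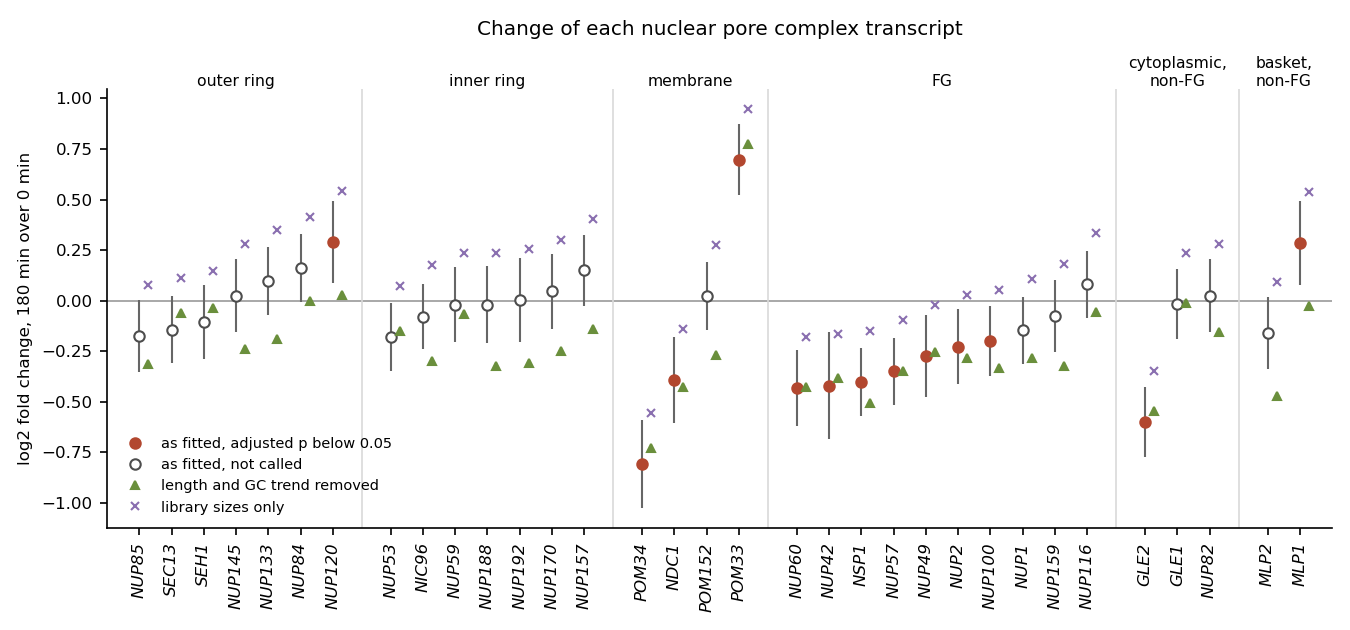
Log2 fold change of each gene at 180 min over 0 min with its 95% confidence interval (3 libraries per group), filled where the adjusted p was below 0.05, beside the values with the length and GC trend removed (triangles) and with library sizes only (crosses). Of the FG genes 7 of 10 were called lower as fitted, 9 with the trend removed and 0 with library sizes only, against 28.2%, 28.9% and 15.6% of all genes. POM33, POM34 and GLE2 kept their call in all 3 fits.

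The membrane genes moved in opposite directions. POM33, which encodes an integral membrane protein that helps distribute pores in the envelope, had 168, 182 and 189 CPM at 180 min and 102.6, 117.8 and 112.4 CPM at 0 min. The 180 min libraries all lay above the 0 min libraries, and the log2 fold change was 0.70 ± 0.08 (SE), a 1.62-fold rise with an adjusted p of 3.44e-06 in edgeR. POM34, a small pore membrane protein gene, had 56.8, 61.4 and 76.5 CPM at 180 min and 111.4, 109.2 and 120.2 CPM at 0 min. It fell by 0.81 ± 0.10 (SE) on the log2 scale (adjusted p = 6.71e-06), the largest fall among the 33 genes, and its groups did not overlap. NDC1, which encodes a membrane protein shared with the spindle pole body, had 124.6, 136.1 and 165.6 CPM at 180 min and 178, 199 and 183 CPM at 0 min. It fell by 0.39 ± 0.10 (SE) on the log2 scale (adjusted p = 0.00325), with no overlap, but its value with library sizes only (-0.14) was not called. POM152, the large transmembrane ring subunit that binds Pom34, had 181.8, 166.5 and 187.9 CPM at 180 min and 171.1, 174.0 and 183.0 CPM at 0 min and was not called (0.02 ± 0.08 SE). With the length and GC trend removed POM152 was called lower (-0.27). The membrane class thus had 1 gene that rose, 2 that fell and 1 not called, where 29.5% of all genes rose and 28.2% fell. Library sizes only gave 2 membrane genes higher and 1 lower, against 48.2% and 15.6% of all genes. The POM33 and POM34 calls held under all 18 alternatives, with log2 fold changes of 0.64 to 0.95 for POM33 and -0.95 to -0.56 for POM34.

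FG nucleoporin transcripts were lower at 180 min in most cases. Among the 10 FG genes 7 fell and 0 rose (70% lower, against 28.2% of all genes). With library sizes only, however, 0 were called lower and 1, NUP116, higher, against 15.6% and 48.2% of all genes. The median log2 fold change of the FG genes as fitted was -0.25, against 0.02 over all genes. In 8 of the 10 FG genes every 180 min library lay below every 0 min library, against 30.8% of all genes. The summed level of the FG genes was 872, 898 and 903 CPM at 180 min and 998, 1078 and 1035 CPM at 0 min, and these groups did not overlap. As a share of all gene counts, with no composition factors, the FG genes were not lower, at 0.0973 ± 0.00154% at 180 min and 0.0950 ± 0.00352% at 0 min (SD, n = 3). The ratio of FG to scaffold counts within a library, which no scaling factor can change, was 0.504, 0.547 and 0.577 at 180 min and 0.627, 0.667 and 0.603 at 0 min. Its mean was 0.543 ± 0.0366 at 180 min and 0.632 ± 0.0326 at 0 min (SD, n = 3), with every 180 min library below every 0 min library. The ratio moved with the level of genes of at least 3000 bases given above, being lowest where that level was highest in the 180 min libraries and in the 0 min libraries alike, and the part of that shift in it was not tested. The FG median log2 fold change minus the scaffold median was -0.24. It was -0.13 without 180 min replicate 1, -0.37 without 180 min replicate 3 and -0.16 with the length and GC trend removed. Both the ratio and this difference, taken over chosen members, are descriptions and were not tested.

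**Figure D3:**
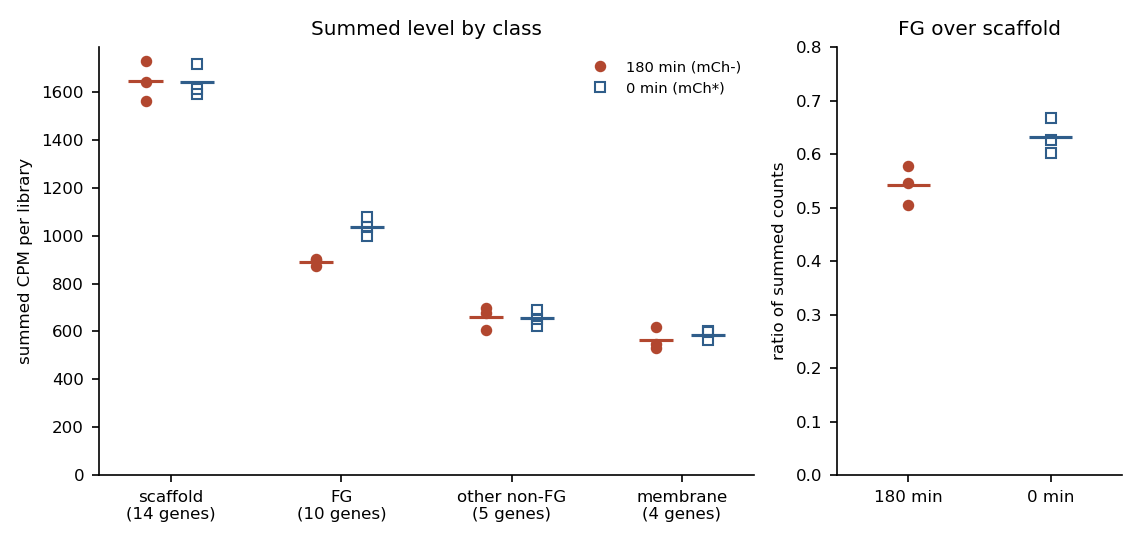
Left, CPM summed over the scaffold, FG, other non-FG and membrane genes in each library, with 180 min (mCh-, filled circles) beside 0 min (mCh*, open squares), 3 libraries each and bars at the means. Right, the ratio of summed FG counts to summed scaffold counts in a library, 0.504 to 0.577 at 180 min and 0.603 to 0.667 at 0 min, whose groups do not overlap.

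Nsp1, Nup49 and Nup57 form the trimer that fills the central channel, and the genes of all 3 fell. NSP1 had 106.6, 116.8 and 117.0 CPM at 180 min and 144.4, 159.9 and 145.9 CPM at 0 min, without overlap. It fell by 0.40 ± 0.08 (SE) on the log2 scale (adjusted p = 0.000443 in edgeR). NUP57 had 110.9, 124.7 and 116.6 CPM at 180 min and 147.3, 156.1 and 145.0 CPM at 0 min and fell by 0.35 ± 0.08 (SE), with an adjusted p of 0.00127. The NUP57 libraries also separated fully by time. NUP49 had 46.2, 48.7 and 57.0 CPM at 180 min and 66.1, 59.0 and 58.7 CPM at 0 min, a narrow gap between the groups. It fell by 0.27 ± 0.09 (SE), with an adjusted p of 0.0214. Leaving out 180 min replicate 1 (0.0954), 180 min replicate 2 (0.0777) or 0 min replicate 1 (0.0941) ended that call. With library sizes only the 3 genes were at -0.15, -0.10 and -0.02 and none was called.

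NUP100 and NUP116 encode related GLFG proteins of the channel and its cytoplasmic side, and the test of their difference is given with the paralog pairs. NUP100 had 77.1, 84.2 and 84.1 CPM at 180 min and 86.3, 97.2 and 98.3 CPM at 0 min. Its groups did not overlap, and it fell by 0.20 ± 0.08 (SE) with an adjusted p of 0.0468, close to the threshold. Leaving out 180 min replicate 1 (adjusted p = 0.15), 180 min replicate 2 (0.0704), 0 min replicate 2 (0.15) or 0 min replicate 3 (0.134) ended the call. It also ended with no low-count filter (0.0545) and with the replicate number as a block (0.0612). With library sizes only its log2 fold change was 0.05 (adjusted p = 0.598), a change of sign without a call. NUP116 had 139.4, 141.5 and 126.7 CPM at 180 min and 128.3, 125.5 and 131.8 CPM at 0 min, with overlap, and was not called (0.08 ± 0.08 SE).

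On the cytoplasmic face, NUP42, which helps Gle1 activate the helicase Dbp5 in mRNA export, was the least abundant member. It had 16.3, 20.3 and 20.8 CPM at 180 min and 24.2, 28.5 and 24.0 CPM at 0 min, without overlap, and fell by 0.42 ± 0.12 (SE) with an adjusted p of 0.00913. The NUP42 call ended without 0 min replicate 2 (adjusted p = 0.0614). NUP159, the docking site of Dbp5, had 144.1, 120.9 and 126.8 CPM at 180 min and 132.7, 135.8 and 144.0 CPM at 0 min and was not called (-0.07 ± 0.08 SE). On the nuclear face, NUP60, which ties the basket to the envelope, had 65.0, 67.8 and 70.9 CPM at 180 min and 82.7, 101.9 and 90.5 CPM at 0 min. It fell by 0.43 ± 0.09 (SE), the largest fall in the class, with an adjusted p of 0.000592 and full separation of the groups. NUP2, a mobile nucleoporin that takes part in recycling importin alpha, had 87.4, 96.6 and 100.5 CPM at 180 min and 102.6, 121.9 and 108.4 CPM at 0 min. It fell by 0.23 ± 0.09 (SE) with an adjusted p of 0.0361, a call that ended without 180 min replicate 1 (0.135), 180 min replicate 2 (0.0665) or 0 min replicate 2 (0.196). NUP1, the basket FG gene that anchors importins, had 79.0, 76.5 and 82.8 CPM at 180 min and 83.1, 91.8 and 88.8 CPM at 0 min. Its groups were apart by a small margin, and it was not called (-0.15 ± 0.08 SE, adjusted p = 0.12). With library sizes only NUP42 (-0.17), NUP60 (-0.18) and NUP2 (0.03) were not called. Without 180 min replicate 1, 180 min replicate 2 or 0 min replicate 2 the FG class had 4 called lower in place of 7. Of all genes, 25.8%, 25.3% and 24.6% were called lower in these 3 fits, in place of 28.2%.

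Gene span went along with which FG genes were called. All 7 FG genes under 3000 bases fell, and the 3 that span at least 3000 bases (NUP116, NUP1 and NUP159) were not called. Whether span has a part in this was not tested. Scaffold genes under 3000 bases numbered 7, of which 0 fell. All protein-coding genes were sorted by span into those under 1000 bases and those from 1000, from 2000 and from 3000 bases up to the next limit. From short to long, 35.1%, 29.6%, 22% and 13.1% were called lower and 23.1%, 30.2%, 43.4% and 53.2% higher. Their median log2 fold changes were -0.08, 0.01, 0.16 and 0.28. With the length and GC trend removed, NUP1 (-0.29) and NUP159 (-0.32) were called lower too and NUP116 (-0.05) was not. This gave 9 of 10 FG genes lower, against 28.9% of all genes. The FG median was then -0.33 and the scaffold median -0.17, against 0.01 over all genes. FG genes also have a higher GC content than scaffold genes, with medians of 41.7% and 37.1%.

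**Figure D4:**
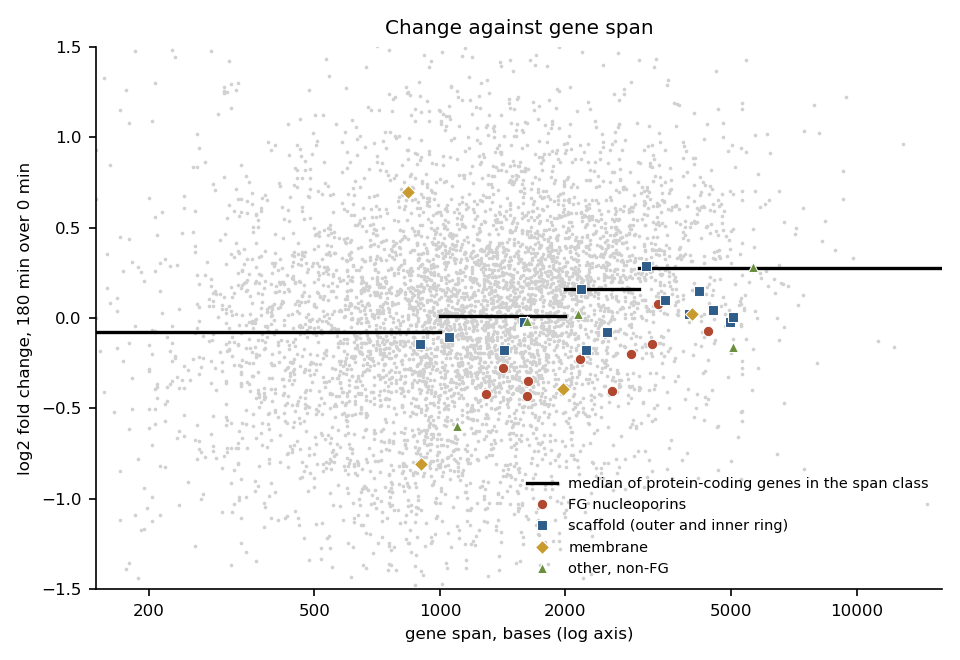
Log2 fold change at 180 min over 0 min against gene span (log axis) for protein-coding genes (grey, values beyond the axis not drawn) and the nuclear pore complex genes by class, with black lines at the median of each span class (-0.08, 0.01, 0.16 and 0.28 from short to long). Members of at least 3000 bases lie at or below the median of their span class or just above it, and the FG genes under 3000 bases lie below theirs.

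Among the other non-FG genes 1 rose, 1 fell and 3 were not called, where 29.5% of all genes rose and 28.2% fell. Library sizes only gave 3 of these non-FG genes higher and 1 lower, against 48.2% and 15.6% of all genes. GLE2, which encodes a WD-repeat protein that binds Nup116 and works in mRNA export, had 48.96, 48.7 and 51.7 CPM at 180 min and 79.2, 76.9 and 70.2 CPM at 0 min. The groups lay far apart, and it fell by 0.60 ± 0.08 (SE) on the log2 scale, with an adjusted p of 1.38e-05 in edgeR. The GLE2 call held under all 18 alternatives (-0.65 to -0.35). GLE1, the activator of Dbp5, had 66.5, 71.8 and 73.8 CPM at 180 min and 69.0, 69.2 and 76.5 CPM at 0 min and was not called (-0.02 ± 0.08 SE). NUP82, which anchors Nup159 and Nsp1 on the cytoplasmic face, was not called either (0.03 ± 0.08 SE).

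Of the basket genes, MLP1 was the member with the highest CPM, at 324, 310.2 and 260.2 CPM at 180 min and 243, 224 and 268 CPM at 0 min, with overlap. It rose by 0.28 ± 0.10 (SE), with an adjusted p of 0.0212. The MLP1 call ended without 180 min replicate 1 (0.0937), 180 min replicate 2 (0.0811), 0 min replicate 1 (0.0561) or 0 min replicate 2 (0.112), and its value was -0.02 once the length and GC trend was removed. MLP1 spans 5628 bases, and its CPM across libraries went with the level of genes of at least 3000 bases given above, being highest in 180 min replicate 1 and, at 0 min, highest in replicate 3. The part of that shift in the MLP1 value was not tested. MLP2 had 191.9, 186.8 and 165.4 CPM at 180 min and 205, 191 and 212 CPM at 0 min and was not called (-0.16 ± 0.08 SE, adjusted p = 0.115), and with the trend removed it was called lower (-0.47).

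Paralog pairs were compared by the log2 ratio of their counts within a library, which does not depend on the scaling. MLP1 over MLP2 was 0.76, 0.73 and 0.65 at 180 min and 0.25, 0.23 and 0.34 at 0 min, a difference of 0.44 in full separation. NUP100 over NUP116 was -0.86, -0.75 and -0.59 at 180 min and -0.57, -0.37 and -0.42 at 0 min, a difference of -0.28 that also left no overlap, by a narrow margin. Both had an exact permutation p of 0.1, the smallest that 3 against 3 libraries allow in a two-sided test, and 0.25 after Benjamini-Hochberg adjustment over the 5 pairs compared. For the inner ring pairs, NUP157 over NUP170 differed by 0.11 (exact permutation p = 0.3) and NUP53 over NUP59 by -0.15 (exact permutation p = 0.2). POM33 and its paralog PER33, an endoplasmic reticulum and pore protein gene that is not among the 33, both rose, PER33 by 0.46 ± 0.07 (SE). PER33 averaged 175.8 ± 3.72 CPM at 180 min, against 128.1 ± 4.49 CPM at 0 min (SD, n = 3). The ratio of POM33 to PER33 differed by 0.24 between the times (exact permutation p = 0.2).

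**Figure D5:**
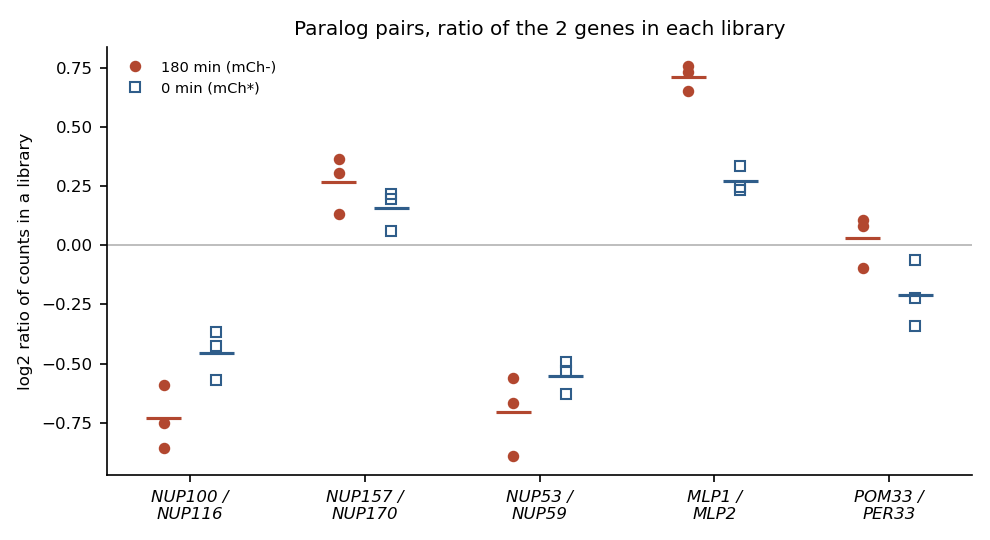
Log2 ratio of the counts of 2 paralogs in each library, with 180 min (mCh-, filled circles) beside 0 min (mCh*, open squares), 3 libraries each and bars at the means. MLP1/MLP2 and NUP100/NUP116 show no overlap between the times (mean differences 0.44 and -0.28), and the other 3 pairs overlap.

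Levels per length differed widely among the members. CPM per kb of gene span, averaged over the 6 libraries, reached from 17.3 (NUP42) to 173 (POM33), with a median of 41.5. NUP42 stood above 17.2% of protein-coding genes and POM33 above 81.7%. POM33, SEC13, POM34, NDC1 and NUP57 were the 5 highest, and NUP42, NUP1, NUP170, NUP82 and NUP120 were the 5 lowest. The order changed at the top: POM33 was first at 180 min (214 CPM per kb, against 132 CPM per kb at 0 min), and SEC13 was first at 0 min. Channel trimer transcripts were uneven, with NUP57 at 72.2, NSP1 at 43.8 and NUP49 at 35.7 CPM per kb at 180 min and 91.9, 57.9 and 43.2 CPM per kb at 0 min. The 7 scaffold genes of at least 3000 bases lay between 26.7 (NUP170) and 37.9 (NUP133) CPM per kb over all libraries.

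Promoter windows from 250 bases before the start codon to 50 bases from it were searched on both strands for 7 motifs. The Reb1 motif CGGGTAA, read as TTACCCG on the other strand, was in 8 of 33 members (24.2%) and in 425 of 5988 protein-coding genes (7.1%). Reb1 is a general regulatory factor that keeps promoters free of nucleosomes. The 8 genes were SEC13, NIC96, NUP157, NUP188, NUP53, NUP116, GLE1 and MLP2, 4 of them inner ring genes. All 8 were among the 20 of 33 members not called as fitted, which include all 7 inner ring genes. Of all genes, 57.7% were called as fitted in either direction. Whether the motif has a part in this was not tested. NIC96, NUP188 and MLP2 were called lower after the length and GC trend was taken out, against 28.9% of all genes. With library sizes only NUP157, NUP188, NUP116 and GLE1 were called higher, against 48.2% of all genes. GATGAG, read as CTCATC on the other strand, the core of the PAC element of ribosome assembly promoters, was in 11 members (33.3%) and in 20.4% of protein-coding genes. Of these 11, 4 fell (NSP1, NUP49, NUP42 and NDC1) and 7 were not called, where 30.3% of the 33 members and 28.2% of all genes fell. The stress element CCCCT was in 1 member, at a site within the coding sequence of NUP84, and in 21.6% of protein-coding genes. The RRPE motif AAAAATTT was in 6 members (18.2%, against 14.2% of protein-coding genes). The SCB motif CGCGAAA was in 3 (9.09%, against 3.61%), the Pho4 motif CACGTG in 2 (6.06%, against 2.91%) and the MCB motif ACGCGT in 1 (3.03%, against 3.07%). The motif sites of the 4 inner ring genes and of 3 genes that fell are shown to let their surroundings be compared, with the motif in capitals, in the RefSeq R64 build. No match says only that these letters are not in the window. The stretches lie at chrVI:149865-149894 (NIC96, plus strand), chrV:372142-372171 (NUP157, minus strand), chrXIII:67663-67692 (NUP188, minus strand), chrXIII:564272-564301 (NUP53, plus strand), chrX:365614-365643 (NSP1, plus strand), chrVII:180636-180665 (NUP49, plus strand) and chrXIII:214128-214157 (NDC1, plus strand).
NIC96: ttatcgaagacCGGGTAAtaataaatatcc
NUP157: aatagaaagtaTTACCCGactttggagagg
NUP188: tgtatatattcCGGGTAAgaatattttgta
NUP53: tttgatgggcaTTACCCGaccgacttgtca
NSP1: ccggacgggtccGATGAGtttttttcttca
NUP49: tactgatcaggtGATGAGacgataaaaaca
NDC1: agactctttggcGATGAGtaagtgtgattg
The first 4 hold the Reb1 motif, which began 140, 147, 132 and 152 bases before the start codon, and the last 3 hold GATGAG, which began 158, 52 and 49 bases before it. These matches are a description of the sequence and say nothing about binding.

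Genes of transport factors that pass through the pore were counted from lists of their own. Of 24 karyopherin and Ran system genes 5 rose and 11 fell (median log2 fold change -0.16), against 29.5% and 28.2% of all genes. Library sizes only gave 10 higher and 7 lower, against 48.2% and 15.6% of all genes. The length and GC trend removed gave 4 higher and 15 lower (median -0.27), against 29.8% and 28.9% of all genes. GSP2, the minor Ran gene, rose by 1.70 ± 0.10 (SE), with 69.7 ± 5.21 CPM at 180 min, against 21.4 ± 2.18 CPM at 0 min (SD, n = 3). GSP1, the main Ran gene, fell by 0.62 and is a close paralog of GSP2, so the division of counts between the 2 is uncertain. KAP123, an importin for ribosomal proteins, fell by 1.06 ± 0.10 (SE), with 107.6 ± 10.2 CPM at 180 min, against 224 ± 26.8 CPM at 0 min (SD, n = 3). The Ran-binding protein gene YRB1 fell by 0.80 ± 0.09 (SE) and the Ran GTPase-activating protein gene RNA1 by 0.56 ± 0.08 (SE).

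Of 20 mRNA export genes 3 rose and 9 fell (median -0.18), against 29.5% and 28.2% of all genes. Library sizes only gave 6 higher and 0 lower, against 48.2% and 15.6% of all genes. The length and GC trend removed gave 3 higher and 6 lower (median -0.11), against 29.8% and 28.9% of all genes. Without 180 min replicate 2 or 0 min replicate 2, 5 fell in place of 9, against 25.3% and 24.6% of all genes. SAC3, the TREX-2 scaffold gene, rose by 0.62 ± 0.09 (SE) and THO2, of the THO complex, by 0.59 ± 0.11 (SE). These genes span 3906 and 4794 bases, and with the length and GC trend removed they were at 0.32 and 0.29, both still called higher. The export adaptor gene YRA1 fell by 0.45 ± 0.08 (SE) and the poly(A)-binding protein gene NAB2 by 0.41 ± 0.08 (SE), neither of them called with library sizes only. Of 14 genes of pore assembly and the inner nuclear membrane 7 rose and 5 fell (median 0.20), against the same shares of all genes. Library sizes only gave 8 higher and 0 lower, and the length and GC trend removed gave 6 higher and 4 lower (median 0.12), against the shares of all genes given for these settings above. YOP1, a membrane-curving protein gene, rose by 0.67 ± 0.09 (SE) and ESC1, a nuclear periphery gene, by 0.48 ± 0.09 (SE). With the length and GC trend removed YOP1 was at 0.79 and ESC1, which spans 4977 bases, at 0.20, both still called higher. BRR6, an envelope protein gene needed for pore biogenesis, fell by 0.47 ± 0.09 (SE), with no call under library sizes only (-0.22). These lists were described by count and median, and no difference between them and the pore genes was tested.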

How the data were processed

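The authors deposited whole-number read counts per gene, not normalized, with 1 column per library (6 libraries, 7127 genes). The submitters' processing notes list, with no roles or order, HTSeq 0.6.1p1 beside STAR 2.5.3a, cutadapt 1.10 and bcl2fastq 2.20.0.422, as well as the builds R64 and sacCer3. Per the labels' protocols the library kit keeps strand. How strand and multiply mapped reads were handled in counting is not given in the sources used here. No member's span overlaps another gene placed in the RefSeq R64 annotation, and 1039 of the table's identifiers had no match there and could not be placed.

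Groups and replicate numbers came from the sample titles. Members and lists were chosen with earlier results of these data known. The test across genes was edgeR 4.0.16 (R 4.3.3): TMM factors (1.07 to 1.10 at 180 min, 0.905 to 0.931 at 0 min), the default filter by group (6220 genes kept, 907 removed), a two-sided quasi-likelihood F test and Benjamini-Hochberg adjustment over all genes kept. Standard errors and 95% intervals came from the same fit. All 33 members are named, and of each partner list the 4 called genes with the smallest adjusted p, with PER33 and GSP1 added. Paralog ratios were tested by exact permutation over the 20 splits of 6 libraries. Nothing in the labels says that libraries of equal number share a culture, and p-values weigh the spread between these libraries only. The fits were tested on simulated counts. Alternatives used DESeq2 1.42.0 and limma 3.58.1, and drawing used matplotlib 3.10.9.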

Additional observations from a re-analysis of the deposited data

How the results depend on the processing

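The 33 genes were refitted under 18 alternatives. Of the 13 calls, 3 (POM33, POM34, GLE2) held under every one, and of the 20 genes not called, 2 (SEH1 and SEC13) stayed so under every one. All genes called stayed within 1.5 times of 3587 under all 18. The nuclear pore genes called higher (3) and lower (10) became 15 and 2 with library sizes only, against 48.2% and 15.6% of all genes. They became 1 and 21 with the length and GC trend removed, against 29.8% and 28.9% of all genes. Adding the replicate block to that fit left 1 and 21, against 29.3% and 28.4%. At an adjusted p below 0.01, 1 was higher and 7 lower, against 23.3% and 22.6% of all genes. Of all genes called, 51.1% were higher, and 75.6% with library sizes only. Leaving out 1 library gave 1 to 4 higher and 7 to 10 lower, with 1 higher without 180 min replicate 1, 0 min replicate 1 or 0 min replicate 2. In those fits 25.4% to 28.1% of all genes were called higher and 24.6% to 27.3% lower. Among genes called in at least 1 of the fits compared, the sign turned round with library sizes only for NUP188 (0.23), NUP59 (0.24), NUP100 (0.053), NUP2 (0.026), GLE1 (0.23), MEX67 (0.021), MTR2 (0.044), SUB2 (0.20), CDC31 (0.20) and SEM1 (0.032). That setting lifts the median of all genes to 0.27, which is part of its construction. With the length and GC trend removed it turned round for NUP133 (-0.19), NUP145 (-0.24), NUP170 (-0.25), NUP192 (-0.31), POM152 (-0.27), MLP1 (-0.024) and CSE1 (-0.25), and with the replicate block added to -0.19, -0.24, -0.25, -0.31, -0.27, -0.024 and -0.25. The cause of the length trend was not tested. With NUP145, NUP53 and NUP59 counted as FG genes, 7 of 13 FG genes fell and 1 of 11 scaffold genes rose, where 28.2% of all genes fell and 29.5% rose. Without 1 library the paralog differences ranged from 0.42 to 0.47 for MLP1/MLP2, -0.35 to -0.22 for NUP100/NUP116, 0.06 to 0.18 for NUP157/NUP170, -0.23 to -0.06 for NUP53/NUP59 and 0.17 to 0.31 for POM33/PER33.

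The replicate block on its own left 3 nuclear pore genes higher and 9 lower, against 27.8% and 26.7% of all genes, the change being NUP100 (adjusted p = 0.0612). The deviations of same-numbered libraries correlated at -0.02, -0.03 and -0.18 across genes, which gave no sign of pairing by number. Such values cannot show that same-numbered libraries came from different experiments.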

Other observations

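Across the 33 nuclear pore genes, which share the same 6 libraries, the log2 fold change went with gene span (Pearson r = 0.35, Spearman rho = 0.45) and against GC content (r = -0.46, rho = -0.56). Its relation to the number of FG codon pairs per 100 codons was weak (r = -0.28, rho = -0.31). After removal of the length and GC trend the coefficients were -0.15 and -0.04 for span, -0.05 and -0.22 for GC content and -0.18 and -0.17 for FG pairs. They describe genes within one comparison and carry no test.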
